A study of Mus musculus with 6 samples.

Results

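The chromatin repressors of the 2-cell state described here are 34 genes whose products hold the totipotency-like programme of mouse embryonic stem cells (mESCs) in check. They form a list drawn up by function, with earlier results of these data known. They were taken out of 21938 protein-coding genes of the GENCODE vM21 annotation (mm10). DPPA4 occupancy at these genes was profiled by CUT&RUN, which sequences the chromatin fragments released by a nuclease that is tethered to the protein by an antibody. The cells were mESCs of a BL6/129 hybrid background that carried a dTAG degron and an mCherry reporter at both copies of Ehmt2, and a clonally derived MERVL-GFP reporter that marks 2-cell-like cells (2CLCs). All groups shared a dTAG treatment of 72 h, so EHMT2 was targeted for degradation in every library and no library of untreated cells was compared. Live cells were sorted into GFP-negative (mESC) and GFP-positive (2CLC) populations, with 2 DPPA4 libraries each. The remaining 2 of the 6 samples were IgG controls, 1 from the GFP-negative sort and 1 from bulk culture.

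The data were 2 lists of peaks, called here the mESC list (GFP-negative) and the 2CLC list (GFP-positive), each of which pooled both DPPA4 libraries of its group. No value below therefore has a replicate spread, no difference between the lists was tested, and the fragments counted behind each list are not known, although the study's methods give a planned number of reads per library. On chromosomes 1 to 19, X and Y the mESC list counted 83602 peaks and the 2CLC list 54642. Strength is given as the authors' −log10 q at the summit, which grows with depth, and as list percentile, the share of peaks of the same list with a lower −log10 q. The cells were grown on feeder fibroblasts, and no expression was measured in these libraries, so the labelled cell states could not be checked against marker genes.

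DPPA4 and its partner DPPA2 form a heterodimer that binds DNA and is needed in mESCs for expression of genes of zygotic genome activation. The repressors act on the other side of the same programme. H3K9 methyltransferases, heterochromatin proteins, the non-canonical Polycomb complex PRC1.6, the CAF-1 histone chaperone, histone deacetylases, the demethylase KDM1A and SUMO ligation silence MERVL elements and germline or 2-cell genes, and loss of many of them raises the share of 2CLCs. The question addressed here is whether DPPA4 occupied the genes that encode these repressors, and whether that occupancy differed between the cell states.

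Every repressor gene had a called DPPA4 peak at a promoter in both lists. The IgG libraries were not used, so the peaks were not checked against IgG signal at these promoters. The promoter window covered the 2.5 kb before and the 0.5 kb after each annotated transcript start. Of the 34 genes, 34 had a promoter summit in the mESC list, against 67.8% of all protein-coding genes, and 34 had one in the 2CLC list, against 59.3%. A promoter region in which peaks of both lists overlapped by at least 1 bp was present at 34 of 34 genes and at 58.0% of protein-coding genes. These counts stand beside the base composition of the promoters. The members' promoters (250 bases before the start to 50 from it on) had a median CpG observed/expected ratio of 0.883, against 0.535 for 21853 protein-coding genes, and a median GC content of 65.2% against 55.3%. Among the 9893 genes with a ratio of 0.6 or more, which included 31 members, 95.4% had a promoter summit in the mESC list and 88.9% in the 2CLC list. Among the 11960 genes below 0.6 these shares were 45.0% and 34.8%. The members' share was thus close to that of CpG-rich promoters in general, and was not tested against it.

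The summits lay close to the start sites. The summit base and 50 bases on either side of it (56 bases in all for L3mbtl2, where the remainder is annotated UTR) are printed at the strongest mESC promoter summit of the member with the strongest peak of each functional group, as far as they lie outside UTRs, and of E2f6, which had the weakest peak of all members. Sequences are from RefSeq, GRCm38.p6, 5′ to 3′ on the strand of the gene. Capitals mark GC boxes (GGGCGG or its reverse complement) and the CCAAT box.
Ehmt1, chr2:24919654-24919754, minus strand: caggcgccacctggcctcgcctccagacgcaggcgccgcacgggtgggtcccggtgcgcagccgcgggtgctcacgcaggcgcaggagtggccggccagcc
Daxx, chr17:33909291-33909391, plus strand: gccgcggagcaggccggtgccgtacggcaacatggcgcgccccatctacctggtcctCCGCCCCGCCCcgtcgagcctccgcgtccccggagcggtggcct
L3mbtl2, chr15:81663833-81663888, plus strand: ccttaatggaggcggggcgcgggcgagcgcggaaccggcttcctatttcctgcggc
Chaf1b, chr16:93883702-93883802, plus strand: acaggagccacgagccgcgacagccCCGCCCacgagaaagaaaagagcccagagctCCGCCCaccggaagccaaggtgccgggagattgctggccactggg
Zmym2, chr14:56886425-56886525, plus strand: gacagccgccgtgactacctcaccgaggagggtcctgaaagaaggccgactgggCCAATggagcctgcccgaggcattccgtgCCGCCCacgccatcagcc
Ncl, chr1:86359512-86359612, minus strand: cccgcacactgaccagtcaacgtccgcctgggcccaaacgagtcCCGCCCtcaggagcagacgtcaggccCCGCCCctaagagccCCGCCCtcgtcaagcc
E2f6, chr12:16810776-16810876, plus strand: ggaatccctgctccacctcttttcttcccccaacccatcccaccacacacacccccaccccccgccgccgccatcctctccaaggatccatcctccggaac
These stretches held 13 CpG dinucleotides at Ehmt1 and 15 at Daxx, and 4 at E2f6.

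Across the members' promoters, 25 of 34 (73.5%) held a GC box on either strand, against 43.9% of all protein-coding promoters and 73.2% of the CpG-rich ones. The E-box CACGTG, the sequence that MYC and MAX recognise, was in 6 (17.6%; all 7.71%, CpG-rich 11.4%), among them the Max promoter itself. The E2F letters TTCCCGCC were in 5 (14.7%; all 2.93%, CpG-rich 5.20%), namely Chaf1a, Pias4, Rnf2, Suv39h2 and Trim28. CCAAT was in 15 (44.1%; all 38.9%, CpG-rich 37.8%), the NRF1 core GCATGCGC in 3 (8.82%; all 3.70%, CpG-rich 6.31%) and the YY1 letters AAGATGGCG in 1 (2.94%; all 1.78%, CpG-rich 3.48%). The E2F letters overlap the GC box where a further C follows, and these matches describe letters in a window, not bound sites.

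Peaks at the repressor promoters were stronger than at most genes. The median list percentile of the strongest promoter peak was 90.1 in the mESC list and 86.3 in the 2CLC list, against 83.6 and 78.0 over the protein-coding genes with such a peak. In CpG-rich promoters these medians were 86.7 and 81.1. Of the members, 26 lay above the protein-coding median −log10 q of 15.5 in the mESC list and 28 above that of 9.55 in the 2CLC list. Above the 90th percentile of the list were 17 members in the mESC list, where 34.3% of genes with a promoter summit lay, and 12 in the 2CLC list, where 23.1% lay. The strongest peaks were also wider than at other genes, with a median of 1516.5 bp against 1228 bp in the mESC list and 2017 bp against 1334.5 bp in the 2CLC list.

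**Figure D1:**
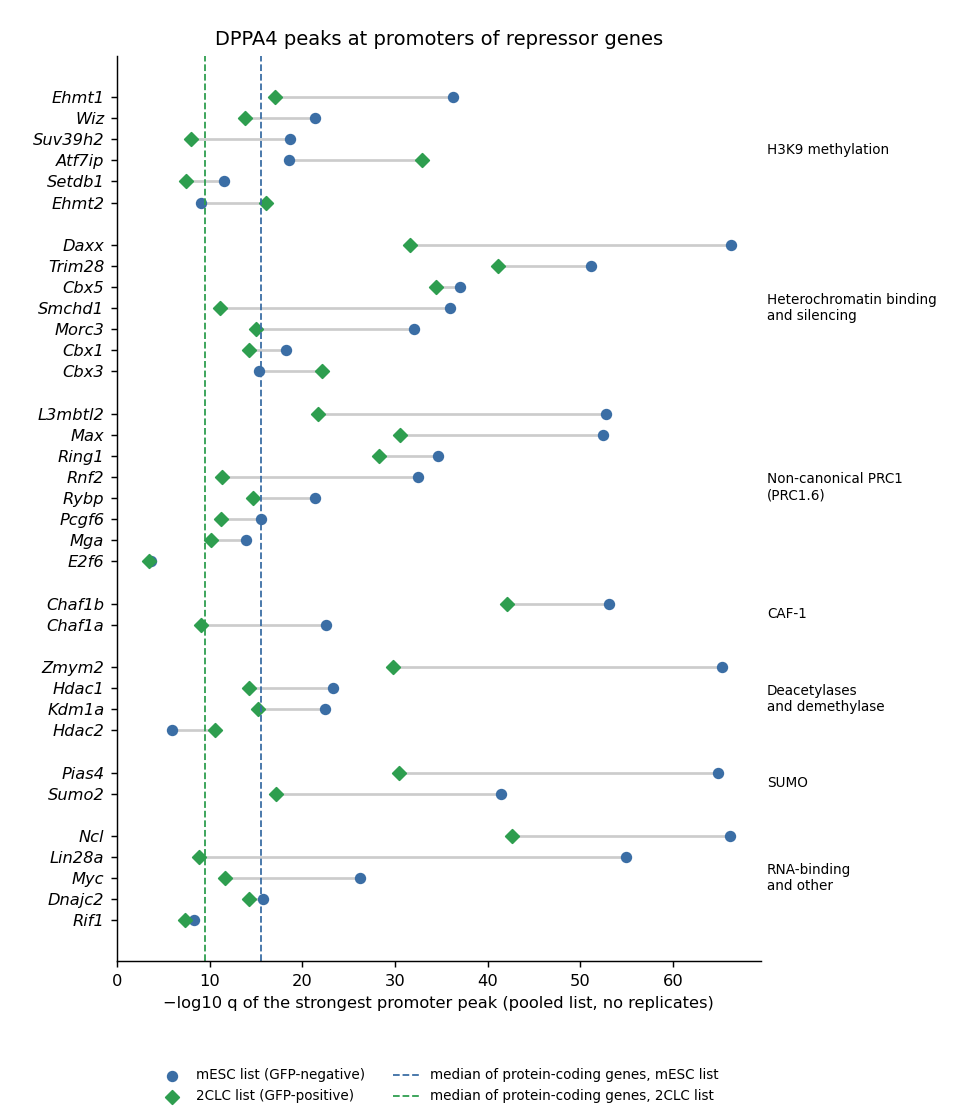
−log10 q of the strongest promoter peak of each of the 34 repressor genes in the mESC list (circles) and the 2CLC list (diamonds), by functional group, with dashed lines at the medians of protein-coding genes with a promoter summit (15.5 and 9.55). Daxx, Ncl, Zmym2 and Pias4 stand at the right with mESC values of 64.9 to 66.3, E2f6 is at the left in both lists, and the diamond lies to the right of the circle at Atf7ip, Cbx3, Ehmt2 and Hdac2 only. Each point is 1 pooled list, so there are no error bars.

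Of the 6 genes of H3K9 methylation, Ehmt1 had the strongest mESC promoter peak. Ehmt1 encodes the partner with which EHMT2 forms the H3K9me1/2 methyltransferase, and its −log10 q was 36.3 in the mESC list (fold enrichment 16.7) and 17.0 in the 2CLC list (10.1). Wiz, a zinc-finger subunit of that complex, had its strongest mESC peak (21.4) and its strongest 2CLC peak (13.9) at different starts, with summits 24977 bp apart. In the region of the first the pair was 21.4 and 5.09, and in that of the second 17.9 and 13.9. Suv39h2, a methyltransferase that trimethylates H3K9 in constitutive heterochromatin, had 18.7 and 8.02. Setdb1, the methyltransferase recruited by TRIM28, had 11.6 and 7.49. Atf7ip, the cofactor that keeps SETDB1 stable in the nucleus, had 18.6 and 32.9, and so was 1 of 4 members with the higher −log10 q in the 2CLC list, the shorter one. The median list percentile of the group was 86.5 in the mESC and 86.4 in the 2CLC list.

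Ehmt2, the gene that carries the degron, had DPPA4 peaks at several places along its length. Its strongest peaks at an annotated start had a −log10 q of 9.09 in the mESC list (chr17:34910299-34912716) and 16.1 in the 2CLC list (chr17:34905146-34907662). Their summits lie 5538 bp apart, near annotated starts inside the gene. At the start shared by its full-length coding transcripts an mESC peak reached 7.34, and the overlapping 2CLC peak 6.98. A further 2CLC peak in the promoter window of that start reached 14.3. It belonged to another region, with its mESC summit 4238 bp upstream of Ehmt2. That region was much stronger (51.7 and 16.3) and also lies in the promoters of the neighbours C2 and Zbtb12. The window of Ehmt2 held 5 common and 2 mESC-specific regions and no 2CLC-specific one. Its list percentile was 73.4 in the mESC and 87.7 in the 2CLC list.

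The 7 genes of heterochromatin binding and silencing had median list percentiles of 94.4 and 92.3. Daxx, which with ATRX deposits histone H3.3 at repeats, had a −log10 q of 66.3 in the mESC list, the highest of the members, and 31.6 in the 2CLC list. Trim28, the corepressor that KRAB zinc-finger proteins bring to retroelements, had 51.2 and 41.1. The genes of the HP1 proteins that bind methylated H3K9 spread widely. Cbx5 (HP1α) had 37.0 and 34.4, Cbx1 (HP1β) 18.3 and 14.2, and Cbx3 (HP1γ) 15.4 and 22.2, the last being the lowest of the group in the mESC list. Smchd1, which is needed to keep the inactive X chromosome silent, had 35.9 and 11.1. Morc3, an ATPase of retroelement silencing, had 32.1 and 14.99. The promoter summits of Cbx3 and Cbx5 also fall in the promoters of Hnrnpa2b1 and Hnrnpa1, which share these start regions, so the peaks cannot be assigned to either gene of a pair.

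The 8 PRC1.6 genes held both strong peaks and the weakest. L3mbtl2, a subunit that binds and compacts chromatin, had 52.8 in the mESC and 21.7 in the 2CLC list. Max, the E-box-binding partner of MGA and MYC, had 52.4 and 30.6. The E3 ligases of histone H2A had 34.7 and 28.3 (Ring1) and 32.5 and 11.3 (Rnf2). Rybp, a stimulator of that ligase activity, had 21.3 and 14.7. Pcgf6 and Mga, which define PRC1.6, had 15.5 and 11.3, and 14.0 and 10.2. E2f6, the factor that brings the complex to germline promoters, had 3.71 and 3.46, at list percentiles of 48.9 and 50.5. E2f6 was the only member that had no promoter summit in either list when peaks with a −log10 q below 5 were left out. The median percentiles of the group were 90.9 and 83.9.

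The members include 2 subunits of CAF-1, which loads histones H3 and H4 behind the replication fork. Chaf1b had a −log10 q of 53.1 and 42.1, and Chaf1a 22.6 and 9.12. Among the deacetylases and the demethylase, Zmym2, a zinc-finger partner of KDM1A, had 65.3 and 29.8. Hdac1 had 23.3 and 14.3, and Kdm1a, which removes methyl groups from H3K4, had 22.4 and 15.2. Hdac2 had 5.89 in the mESC list, the second lowest of the members, and 10.6 in the 2CLC list. Hdac1 and Hdac2 encode closely related catalytic subunits of the same complexes, and their mESC list percentiles were 89.5 and 62.7, whereas their 2CLC ones were 85.6 and 80.3.

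Pias4, a SUMO E3 ligase, had 64.9 and 30.4, and Sumo2, the modifier that it conjugates, had 41.5 and 17.2. Of the 5 remaining genes, Ncl, which encodes the nucleolar protein nucleolin, had 66.2 in the mESC list and 42.6 in the 2CLC list, the highest of the members there. Lin28a, an RNA-binding pluripotency factor, had 54.9 and 8.84. The transcription factor gene Myc had 26.2 and 11.7, Dnajc2, which encodes a chaperone that also binds ubiquitylated H2A, had 15.8 and 14.3, and Rif1, a regulator of replication timing and heterochromatin, had 8.27 and 7.34. At Myc the strongest summit lay 1894 bp upstream of the nearest start in the mESC list, with a second common region (15.3 and 9.58) whose summit lay 201 bp upstream of a start. The start region of Dnajc2 is shared with Psmc2.

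In both lists the strongest promoter peak lay at the same place at most members. The strongest peaks of both lists fell in 1 region for 32 of 34 members, the exceptions being Ehmt2 and Wiz, which have several starts. Their summits lay within 200 bp of each other at 29 members, with a median gap of 23.5 bp over all 34. The summit was within 250 bp of an annotated start at 30 members in the mESC list and at 31 in the 2CLC list, with median signed distances of −77.5 and −85.5 bp (negative values are upstream). These measures of place are given for the members only. Without the share over protein-coding genes, they cannot be called particular to the repressor genes. Myc and Rif1 were the exceptions beyond 500 bp in both lists, and Rif1 alone had no summit within 500 bp of any start. At the single start that most coding transcripts use, a choice made after the data were seen, 33 members had a summit in the mESC list and 34 in the 2CLC list, against 61.0% and 52.1% of protein-coding genes. The exception was Atf7ip, whose strong summit lies at a more downstream, CpG-rich start.

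The −log10 q was lower in the 2CLC list at 30 of 34 members, as it was at 87.7% of the 12501 protein-coding genes with promoter summits in both lists, so this direction is shared with the background. In list percentiles, 23 members were lower and 11 higher in the 2CLC list, with a median difference of −2.52 points. Over protein-coding genes 79.3% were lower, with a median difference of −5.86 points and quartiles of −15.5 and −0.740. The difference was within 10 points at 27 members and between the quartiles of all genes at 21. These signs depend on list length, since the longer mESC list holds more weak peaks below the promoter peaks. With the mESC list cut to the length of the 2CLC list, the members' median percentiles were 84.9 and 86.3, the median difference turned to 1.98 points, and 14 members were lower and 20 higher in the 2CLC list. Over protein-coding genes the median difference was then −1.17 points, and 57.2% were lower. The direction between the states is therefore not set by these ranks.

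With each list read at its own strongest promoter peak, Lin28a had the largest difference towards a lower rank, with a list percentile of 97.7 in the mESC and 76.2 in the 2CLC list. Its fold enrichment was 21.8 in the mESC and 6.79 in the 2CLC list at the same summit region (summits 24 bp apart), and both its other common promoter regions were also weaker in the 2CLC list (20.6 against 3.11 and 8.27 against 1.64 in −log10 q). The percentiles were 94.4 and 80.9 at Smchd1, 86.5 and 74.0 at Suv39h2, 89.2 and 76.8 at Chaf1a, and 93.4 and 81.8 at Rnf2. Of these 5 genes, Lin28a lay below the first quartile of protein-coding genes (−15.5 points) and the other 4 above it. None of the 34 members lay below the 5th percentile of protein-coding genes (−44.9 points). At the start that most coding transcripts use, the difference was larger at Wiz (88.5 and 62.6, −26.0 points) than at Lin28a (−21.5 points). With lists of equal length, Lin28a stood at 96.5 and 76.2.

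In the opposite direction, Hdac2 ranked at 62.7 in the mESC and 80.3 in the 2CLC list, Ehmt2 at 73.4 and 87.7, Atf7ip at 86.5 and 96.4, Cbx3 at 83.3 and 92.3, and Cbx5 at 94.7 and 96.8. Hdac2 and Ehmt2 exceeded the 95th percentile of protein-coding genes (11.8 points). That is 2 of 34 members, near the share of protein-coding genes that lies above this cut by definition. For Ehmt2 the peaks compared lie at different starts. Within single regions, its percentiles were 68.2 and 70.9 at the start of its full-length transcripts, 73.1 and 87.7 at 1 internal start, and 73.4 and 81.9 at another further downstream. The region at the full-length start also held a summit in the C2 promoter, and the most downstream one a summit in the Slc44a4 promoter. Over the whole promoter window of the full-length start, the percentiles were 68.2 and 85.6 (17.4 points), in different regions. In the upstream region shared with C2 and Zbtb12 they were 97.4 and 87.9, the opposite direction. With lists of equal length, E2f6 (21.8 and 50.5), Hdac2 (42.9 and 80.3) and Ehmt2 (59.3 and 87.7) had the largest differences upward. Without replicates, none of these differences can be set against experimental error.

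**Figure D2:**
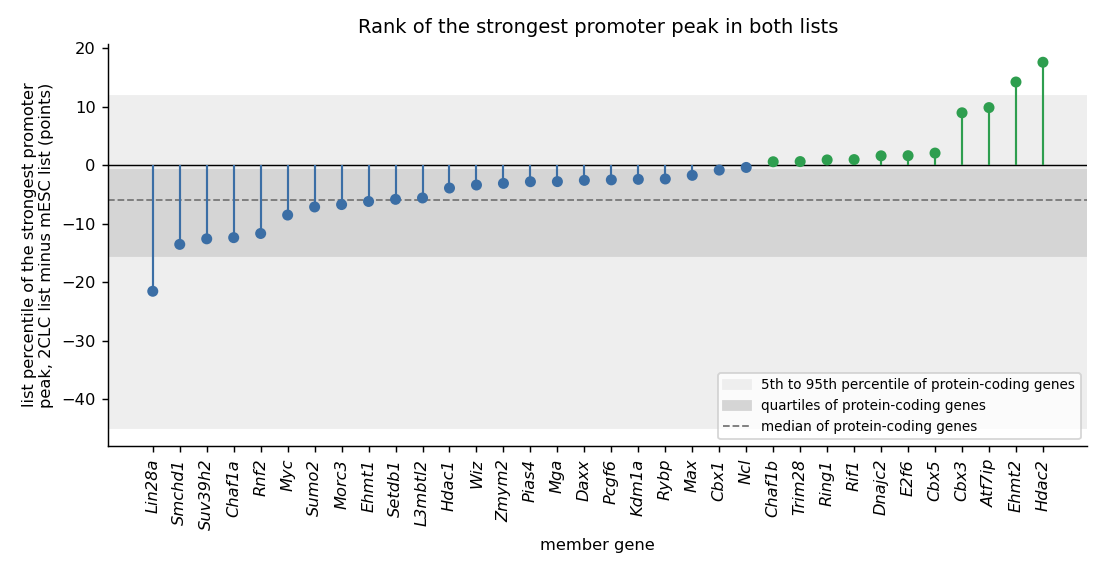
List percentile of the strongest promoter peak in the 2CLC list minus that in the mESC list, in points, for the 34 repressor genes ordered by the difference, over grey bands that give the quartiles (−15.5 to −0.740) and the 5th to 95th percentile (−44.9 to 11.8) of protein-coding genes. With the lists as deposited, most members lie inside the bands, Lin28a is the lowest, and Ehmt2 and Hdac2 lie above the upper band. These 2 of 34 members are near the share of protein-coding genes above that band by definition.

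Beyond the promoters, the gene windows (2.5 kb upstream of the first start to the gene end) held 116 mESC and 109 2CLC peaks over 1367.63 kb. Overlapping peaks merged into 142 regions of 99695 in the genome. The median density was 1.24 regions per 10 kb of window, against 0.630 over protein-coding genes, and ran from 0.215 at Morc3 to 5.34 at Myc. Of the 142 regions, 74 were common to both lists (52.1%, Wilson 95% interval 43.9 to 60.2), 34 were mESC-specific (23.9%, 17.7 to 31.6) and 34 2CLC-specific (23.9%, 17.7 to 31.6). In the windows of all protein-coding genes these shares were 38.7%, 46.0% and 15.3%. All members have a common promoter region, against 58.0% of protein-coding genes. Neither the density nor the class shares are given for the genes with such a region alone. The intervals reflect counting error alone and take regions as independent of each other. Since the mESC list is longer, both lists were also compared at equal length, which gave 51.6% common, 11.5% mESC-specific and 36.9% 2CLC-specific regions at the members, against 44.2%, 29.2% and 26.5% in all coding windows.

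The specific regions were weak. Their median −log10 q was 2.23 for the mESC-specific ones (highest 9.03, upstream of Cbx1) and 2.06 for the 2CLC-specific ones (highest 6.12, in Hdac1), against 12.8 and 8.98 for the common regions in the same lists. A −log10 q of 5 or more was reached by 3 of the 34 mESC-specific and 4 of the 34 2CLC-specific regions. Strengths by class over the windows of all protein-coding genes are not given, so weak specific regions cannot be called particular to the repressor genes. The common regions lay in promoters in 53 of 74 cases. Introns held 19 of the 34 mESC-specific and 23 of the 34 2CLC-specific regions. These places are not given for regions in all coding windows, so they cannot be called particular to the members. Genome-wide, the paper reports shared DPPA4 sites enriched at promoters and state-specific sites more often in introns or between genes. The median soft-masked share, which marks repeats and simple sequence, was 12.4% in common, 21.4% in mESC-specific and 41.1% in 2CLC-specific regions of the members, and 10.2%, 9.53% and 24.0% in all coding windows.

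**Figure D3:**
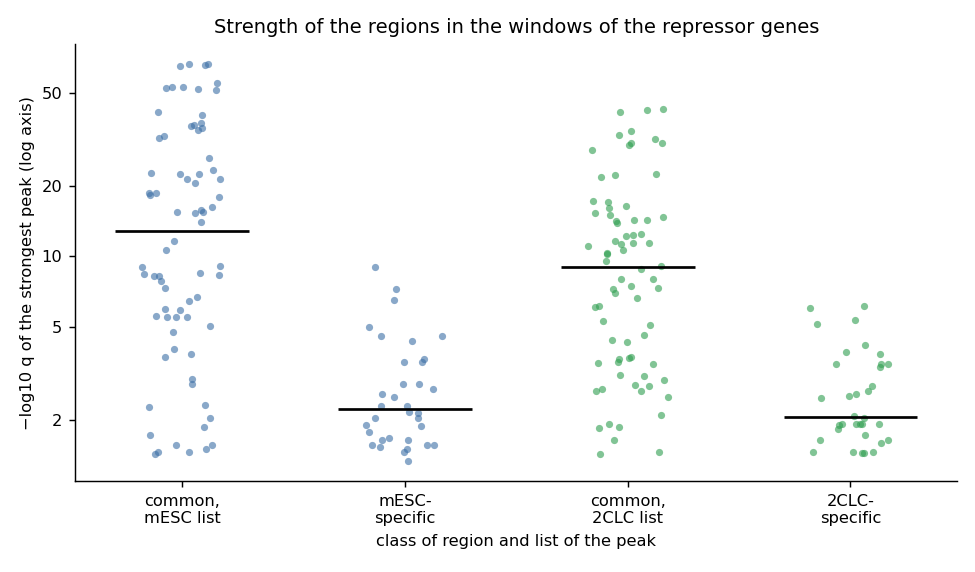
−log10 q (log axis) of the strongest peak of each of the 142 regions in the windows of the repressor genes, by class of region and list, with black lines at the medians. Common regions reach values above 40 in both lists, whereas the highest specific regions are at 9.03 (mESC) and 6.12 (2CLC).

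2CLC-specific regions were found at 15 of 34 members (44.1%), against 23.8% of all protein-coding genes and 31.1% of those with a common promoter region. The windows of the members were longer, with a median of 30.2 kb. It was 19.9 kb for all protein-coding genes and 25.9 kb for those with a common promoter region. Whether window length bears on these shares was not tested. The count was 12 when peaks had to reach a −log10 q of 2 and 6 at a −log10 q of 5. No share over protein-coding genes is given at these filters, so the comparison holds for the unfiltered lists only. mESC-specific regions were found at 19 members (55.9%), against 44.0% of protein-coding genes and 50.8% of those with a common promoter region. At 8 members both kinds were present, and at 8 all regions were common, with no share over protein-coding genes given for either count.

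**Figure D4:**
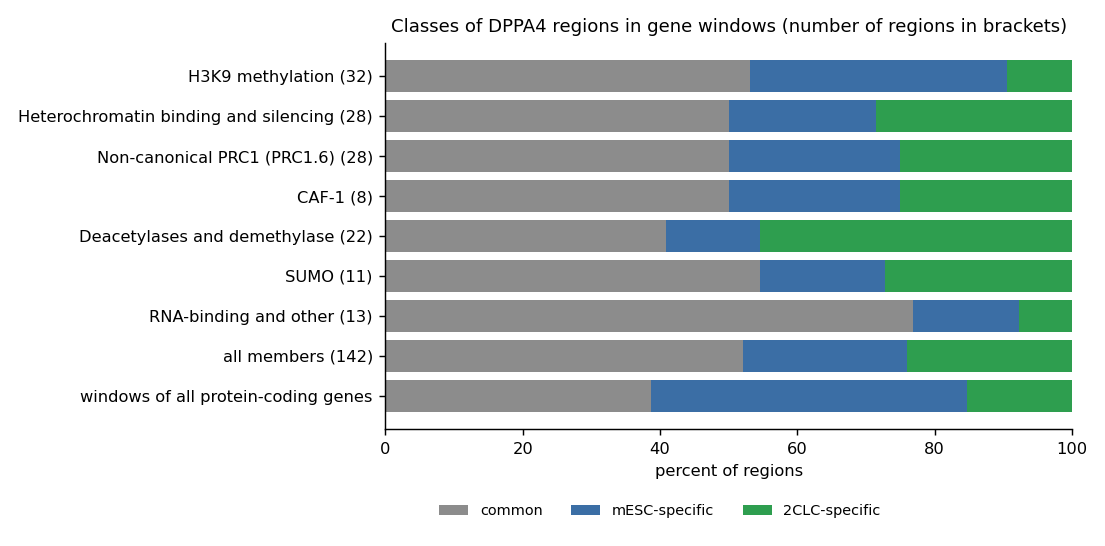
Share in percent of common, mESC-specific and 2CLC-specific regions in the windows of each functional group, of all 34 members and of all protein-coding genes, with the number of regions in brackets. The 2CLC-specific share is 45.5% in the deacetylase and demethylase group and 15.3% in all coding windows. Bars of groups with few regions rest on small numbers.

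Hdac1 and Kdm1a held 10 of the 34 2CLC-specific regions. Hdac1 had 6 of them, 3 common regions and no mESC-specific one, with 9 2CLC against 3 mESC peaks in its window. Of these 6, 4 lay in introns and 2 in promoter windows. Kdm1a had 4 in introns, with −log10 q from 1.44 to 2.53, beside 3 common and 3 mESC-specific regions. Without these members, a choice made after the data were seen, 19.5% of the regions of the others were 2CLC-specific and 25.2% mESC-specific. Cbx5 had 3 2CLC-specific regions (1.64 to 6.01) in introns, with soft-masked shares from 51.5% to 87.2%. Smchd1 had 3, adjacent to each other in 1 intronic stretch, with 2.48 to 3.46. L3mbtl2 had 3 within the promoters of its annotated starts, with 1.46 to 1.93.

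The other members with 2CLC-specific regions had 1 or 2. Ehmt1 had 1 in an intron (5.34) and 1 in the promoter, 2283 bp upstream of the start (2.04). Their soft-masked shares were 88.7% and 87.3%, and the intronic one had a copy number of 2. Rnf2 had 2 in introns (5.15 and 3.82), beside 2 mESC-specific ones. Chaf1a had 1 in an intron (1.83) and 1 in an exon (2.80), Pcgf6 had 2 in introns (1.93 and 1.44), and Pias4 had 2 (1.93 and 1.91). Atf7ip (3.90), Cbx3 (3.35), Daxx (1.72), Rif1 (2.66) and Sumo2 (1.64) had 1 each. None of these regions matched the strength of the promoter peak of its own gene in the same list.

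The 2 strongest 2CLC-specific regions lay in sequence with few CpG dinucleotides. The same stretches around their summits in introns of Hdac1 (−log10 q of 6.12) and Cbx5 (6.01) are printed to allow a comparison with the promoters, and none of the motif letters searched was found in them.
Hdac1, chr4:129534351-129534451, minus strand: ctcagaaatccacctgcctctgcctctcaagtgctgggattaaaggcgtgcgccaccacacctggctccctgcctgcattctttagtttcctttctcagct
Cbx5, chr15:103237582-103237682, minus strand: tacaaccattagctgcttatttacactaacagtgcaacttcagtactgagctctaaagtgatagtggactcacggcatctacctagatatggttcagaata
The Hdac1 sequence is multi-copy, with a median of 124 genome copies of the 31-base words around its summit. The authors kept 1 alignment per multimapping read, with alignments put out in random order, and whether reads at the Hdac1 site came from other copies was not tested. The printed stretches held 2 CpG dinucleotides at Hdac1 and 1 at Cbx5. A copy number of 2 or more was found at 4 of 74 common, 4 of 34 mESC-specific and 4 of 34 2CLC-specific regions of the members. No share over all coding windows is given for it.

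Atf7ip had the most mESC-specific regions, with 6 of them beside 3 common regions and 1 2CLC-specific one. Of these 6, 3 were in introns, 2 at downstream starts and 1 in an exon, with −log10 q from 1.52 to 6.50. The window of Atf7ip is 107.2 kb long. Its density of 0.933 regions of any class per 10 kb was below the members' median of 1.24. Wiz had 3 (2.29 to 4.57), of which 2 lay in multi-copy sequence with copy numbers of 301.5 and 24. Trim28 had 3 (1.57 to 7.21), of which 1 lay in the promoter of its neighbour Zbtb45. Its 5 common regions included, beside the promoter, a region with an mESC −log10 q of 40.2, 9727 bp upstream of the nearest start, and a region with 35.2, 10930 bp downstream of the nearest start and in the Zbtb45 promoter. Cbx1 had an mESC-specific peak of 9.03, 2200 bp upstream of its start. By total number of regions, Atf7ip and Kdm1a had 10 each, Hdac1 and Wiz 9 each, and Trim28 and Pias4 8 each.

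By functional group, the 2CLC-specific share ran from 9.38% of 32 regions at the H3K9 methylation genes (3 regions) to 45.5% of 22 regions at the deacetylase and demethylase genes (10 regions). Such regions were 8 of 28 at the heterochromatin genes, 7 of 28 at the PRC1.6 genes, 2 of 8 at the CAF-1 genes, 3 of 11 at the SUMO genes and 1 of 13 at the remaining genes. The mESC-specific share was highest at the H3K9 methylation genes (37.5%), where Atf7ip gave 6 of the 12 regions, and lowest at the deacetylase and demethylase genes (13.6%). Differences between groups were not tested, and 1 or 2 genes carried the extremes.

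**Figure D5:**
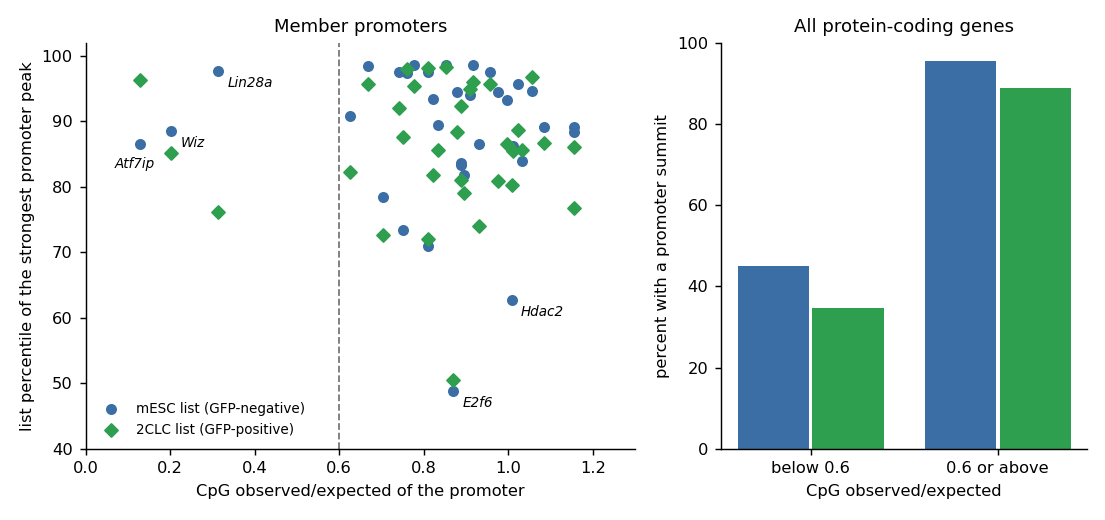
Left, list percentile of the strongest promoter peak of each repressor gene in both lists against the CpG observed/expected ratio of its promoter, with a dashed line at 0.6. Right, percent of all protein-coding genes with a promoter summit below and above that ratio (45.0% and 95.4% in the mESC list in blue, 34.8% and 88.9% in the 2CLC list in green). Most members lie right of the line, and Atf7ip, Wiz and Lin28a lie left of it.

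Only Atf7ip (0.128), Wiz (0.203) and Lin28a (0.314) had a CpG ratio below 0.6 at the start that most coding transcripts use. At the start nearest to the strongest mESC summit, an added measurement, the ratio was 1.05 at Atf7ip and 0.666 at Wiz, and it stayed at 0.314 at Lin28a. Lin28a thus combined a CpG-poor promoter, an mESC peak of 3988 bp in width, and the largest difference in rank when each list was read at its own strongest promoter peak. Conversely, E2f6 (0.870) and Hdac2 (1.008) had CpG-rich promoters and the weakest mESC peaks.

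Promoters of other genes of related function also had called peaks. The set held 59 genes, among them Suv39h1, Atrx, Bcor and Rbbp4. It mixes partners of the members with their relatives and genes of other complexes, such as Lin28b, Mycn and Pcgf1. Of the 59 genes, 59 had a promoter summit in the mESC list, 58 in the 2CLC list and 59 a common promoter region. The shares of protein-coding genes were 67.8%, 59.3% and 58.0%. For the summits, the shares of genes with CpG-rich promoters were 95.4% and 88.9%. The exception was Rcor3, a cofactor of KDM1A, with no promoter summit in the 2CLC list, since the 2CLC summit of its common region lay outside the promoter window. Their median list percentiles were 88.6 and 85.0, and 19 (32.2%) had a 2CLC-specific region, against 23.8% of protein-coding genes and 31.1% of those with a common promoter region.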

How the data were processed

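DPPA4 CUT&RUN was measured in 4 libraries, with 2 IgG libraries that were not used here. As the authors and the labels state, reads were aligned to mm10 with STAR 2.7.10 keeping 1 alignment per multimapping read, in random order, duplicates were removed with Picard 2.26.0, and peaks were called with MACS2 2.2.6 on fragments pooled over the replicates of a group. Whether IgG served as control is not given in the sources used here. In the deposited lists, fold enrichment is a ratio that the authors took from MACS2 (fragments over local background at the summit), and the deposited −log10 q is the authors' adjusted significance, with lowest values of 1.30 in both lists. The number of fragments behind each list is unknown (the methods give only a planned number of reads), so no floor is given, and 0 per-sample columns were left unused.

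Groups came from the sample titles, and GFP-negative and GFP-positive lists are called the mESC and 2CLC lists. Members, lists, groups and motifs were chosen with earlier results of these data known. Peaks were assigned by summit to windows of GENCODE vM21, merged into regions at 1 bp of overlap, and ranked within their list. Region sequence, soft-masked share and 31-base copy number came from RefSeq GRCm38.p6. All values are descriptions with no test, computed with Python 3.11.15, numpy 2.4.6 and pandas 2.3.3, and the code was tested on simulated peaks. Named genes were, per functional group, those with the highest and lowest mESC −log10 q, all with 2CLC-specific regions, the 5 with most regions, the 5 with the largest rank difference each way, and Ehmt2. The other members are given as well, so that all are accounted for. Alternatives changed the strength filter, list length, promoter, overlap and window definitions and rank measure.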

Additional observations from a re-analysis of the deposited data

How the results depend on the processing

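Over 82 alternative values of 11 results, 67 stayed within the margin set for them (1.5 times for counts, the Wilson interval for shares, 1 SD over members for medians), 14 moved and 1 reversed. At a −log10 q of at least 5, 68.2% of member regions were common and 10.6% 2CLC-specific, and 6 members had a 2CLC-specific region. With the mESC list cut to the length of the 2CLC list, 11.5% were mESC-specific and 36.9% 2CLC-specific, and the members' median difference in list percentile, 2CLC minus mESC, turned from −2.52 to 1.98 points (an alternative chosen after seeing the data), because the weak end of the mESC list was removed. In the 10000 strongest peaks of each list, 22 members had an mESC promoter summit, 19 a common promoter region and 8 a 2CLC-specific region, and 14.3% of regions were mESC-specific. Shares over protein-coding genes are not given at a −log10 q of at least 5 or for the 10000 strongest peaks. When common regions needed summits within 200 bp, 34.7% were common and 34.7% mESC-specific. Outside promoters, 31.3% were common, 32.8% mESC-specific and 35.8% 2CLC-specific. These moves follow from which peaks each setting keeps or pairs. The medians of list percentile in each list and of CpG ratio stayed within their margins under each alternative run, although at equal length the mESC median (84.9) was below the 2CLC one (86.3). No paired analysis was possible because each list pools the replicates of its group. Leaving out a replicate could not be run for the same reason. Pooled lists and unknown numbers of fragments limit every comparison between the cell states.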
